A study of Mus musculus with 6 samples.

Results

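The genes described here encode the subunits of the mitochondrial respiratory chain and of ATP synthase, together with their isoforms, their pseudogenes and the assembly factors that carry the same names. They were chosen by symbol, as every gene whose symbol begins with Nduf, Sdha, Sdhb, Sdhc, Sdhd, Uqcr, Atp5 or with Cox4 to Cox8, and each was read from the probe set that names it alone and has the highest mean signal over the 6 arrays. This gave 93 genes of the 22180 genes tested. By complex, 40 genes belong to complex I, 8 to complex II, 8 to complex III, 19 to complex IV and 18 to complex V. Ndufa4 and its relative Ndufa4l2 were counted with complex IV, since the Ndufa4 protein is now known as a subunit of cytochrome c oxidase. A further 9 genes of the rule (Cox6c, Ndufb2, Ndufb4, Ndufb4b, Ndufb4c, Ndufs5-ps, Ndufs6, Ndufs6b and Uqcr10) are named only by probe sets that also name other genes and were not measured here.

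Renal RNA of diabetic mice was compared with that of non-diabetic mice, with 3 mice in each group and 1 array for each mouse. The db/db mice are homozygous for a mutation of the leptin receptor gene Lepr and become obese and diabetic, and their db/m littermates carry 1 db chromosome and a chromosome that by strain convention holds the coat colour marker misty. All mice were male, of the C57BL/KsJ background, were housed from 10 to 22 weeks of age and were sampled at 22 weeks, so obesity and diabetes come together in the db/db group and cannot be told apart. The methods describe the tissue as the renal cortex, whereas the sample labels call it kidney.

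The respiratory chain passes electrons from NADH (complex I) and succinate (complex II) through ubiquinone, complex III and cytochrome c to oxygen at complex IV, and complexes I, III and IV pump protons out of the mitochondrial matrix. ATP synthase (complex V) lets the protons back and makes ATP. The renal cortex is rich in mitochondria, because the proximal tubule reabsorbs most of the filtered salt, glucose and amino acids at the expense of ATP. Most subunits are encoded in the nucleus and a few, all in the membrane parts of complexes I, III, IV and V, by mitochondrial DNA.

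Signals were on the log2 scale and ranged from 0.42 to 12.8, with array medians from 3.36 to 3.43, and all pairs of arrays correlated between 0.984 and 0.990 across probe sets. Of the 93 genes, 87 lay at or above the median probe-set signal of 3.37, and 6 lay below it (Cox7b2, Cox8b, Cox8c, Ndufs5, Atp5c1-ps and Uqcrh-ps1), where a signal is close to that of probe sets for silent genes. Signals of different probe sets cannot be ranked as levels of their genes, so each gene was compared only with itself. Lepr itself had a signal of 3.77, 3.54 and 4.28 in db/db mice and 3.98, 3.59 and 3.61 in db/m mice, and since the mutation alters splicing rather than removing the gene, this does not check the labels. In whole tissue, less RNA per cell and fewer cells of a type cannot be told apart.

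The comparison asks whether the transcripts of the oxidative phosphorylation machinery differed in the kidneys of diabetic mice. No subunit of any complex passed the test over all genes, and the measured differences were small. Limma called 0 of the 93 genes higher and 0 lower in db/db mice at a Benjamini-Hochberg adjusted p under 0.05, where it called 43 genes (0.194%) higher and 64 genes (0.289%) lower among all genes. The lowest adjusted p of a respiratory chain gene was 0.166. At an unadjusted p under 0.05, limma had 3 of the genes higher, or 3.23% against 5.92% of all genes, and 0 lower, against 4.7% of all genes. The one-way test named in the methods also called 0 after adjustment, and before adjustment 8 of the genes were higher and 0 lower at p under 0.05, or 8.6% and 0%, against 4.96% and 4.02% of all genes by the same test.

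The values nevertheless lay more often on the higher side in db/db mice. Of the 93 genes, 69 (74.2%) had a log2 fold change above 0, against 51.2% of all genes, and their median log2 fold change was 0.07, against 0.005 over all genes. This corresponds to a median fold of 1.05. In 15 genes (16.1%) all 3 db/db mice lay above all 3 db/m mice, which was the case for 9.17% of all genes, and in 0 genes did all db/db mice lie below, against 7.62% of all genes. At or above the median signal, the median log2 fold change was 0.08 for the 87 respiratory chain genes and 0.025 for all 13941 genes. Of the 87 respiratory chain genes at or above the median signal, 78.2% had a log2 fold change above 0 and 17.2% had db/db mice entirely above, against 55.8% and 12.1% of all 13941 genes at or above it. These genes were read in the same RNA samples and are not independent replicates, so these shares carry no p value.

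For 84 of the 93 genes (90.3%) the 95% interval of the difference lay within 1.5-fold in either direction, compared with 83.5% of all genes. At or above the median signal, where an interval can bound the size of a change, this held for 80 of 87 genes (92%), compared with 81.4% of all such genes. The other 4 were below the median signal, where it cannot. The intervals of 9 genes reached further, namely those of Ndufa6, Uqcrh-ps1, Cox5b, Cox6a2, Cox6b2, Cox7b, Cox8b, Atp5g1 and Atp5mpl. Absolute log2 fold changes were under 0.1 in 48 genes, between 0.1 and 0.3 in 38 and at least 0.3 in 7. When the thresholds of the study (1.5-fold and p under 0.05 without adjustment) were applied with limma, 1 of the 93 genes was higher (Cox6a2) and 0 were lower, while 1.02% of all genes were higher and 0.807% were lower. The log2 fold change of Cox6a2, 0.585, lay at the 1.5-fold threshold, which is 0.585 on that scale.

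**Figure D1:**
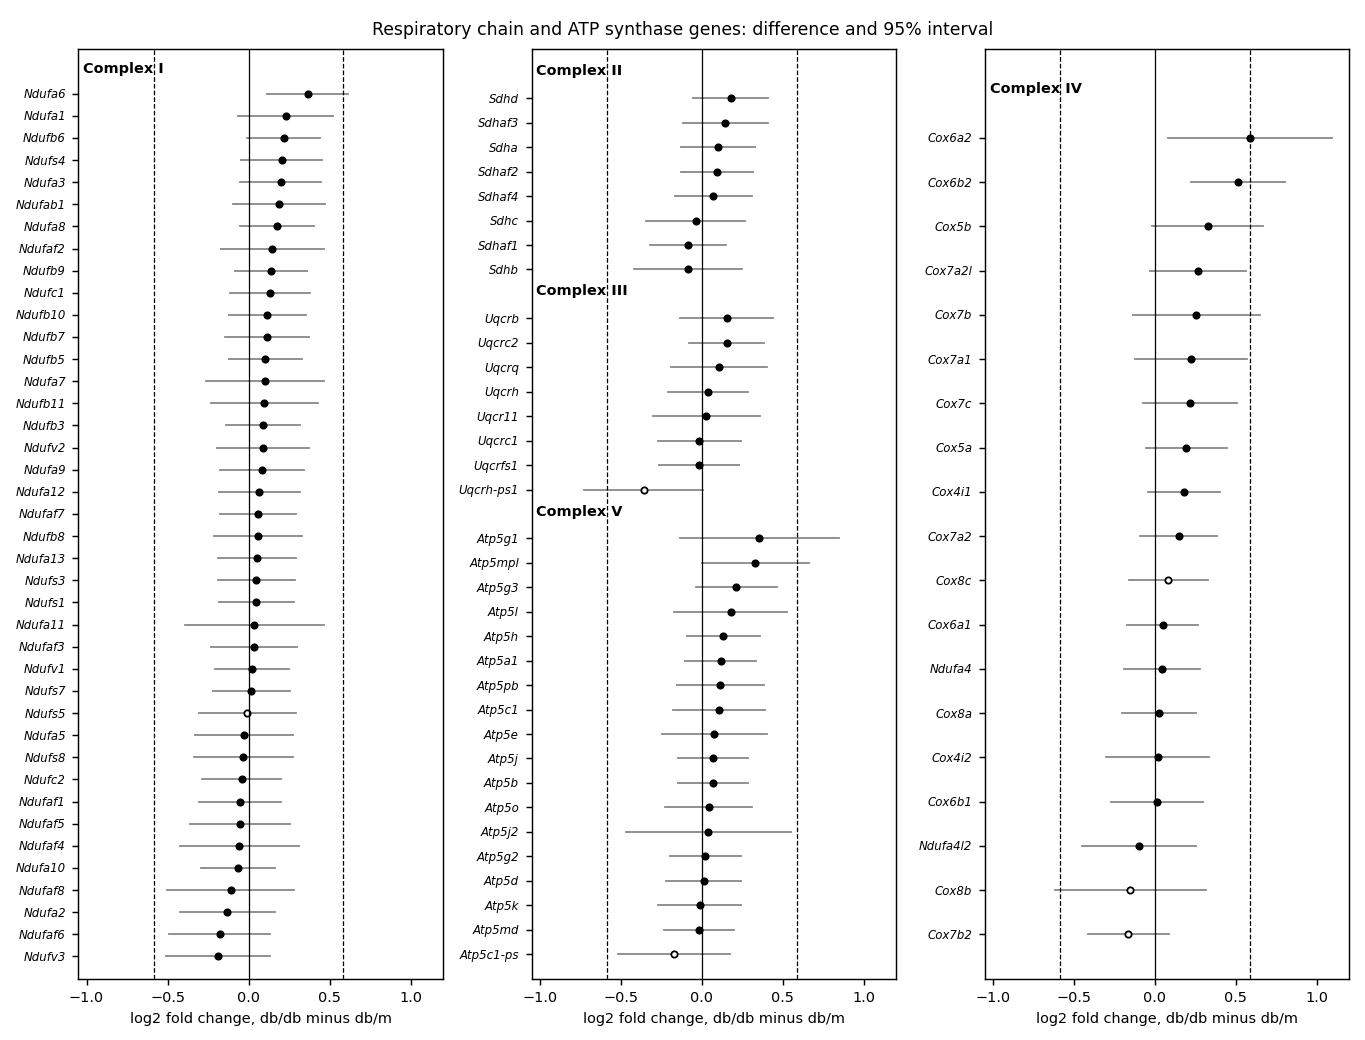
Log2 fold change of each of the 93 genes (db/db minus db/m, x axis) with its 95% interval, 1 row per gene, grouped by complex and sorted by value. Open circles mark the 6 genes below the median signal, the dashed lines mark 1.5-fold in either direction, and only 3 intervals (Ndufa6, Cox6a2 and Cox6b2) lie wholly on one side of 0.

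**Figure D2:**
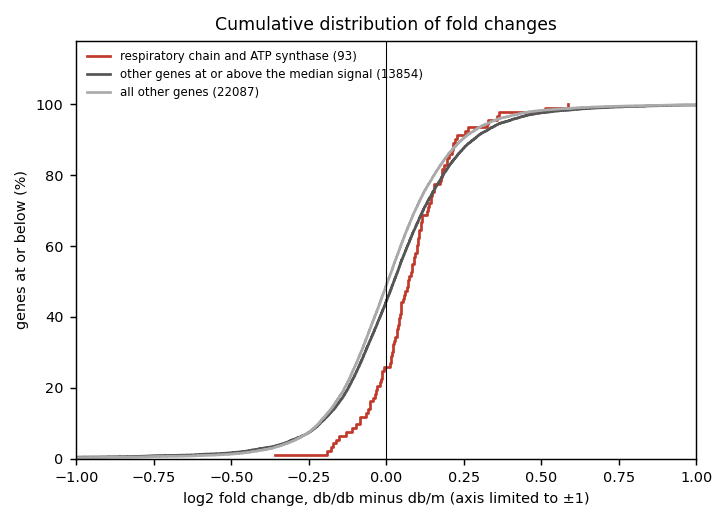
Cumulative share of genes (y axis) by log2 fold change (db/db minus db/m, x axis). The curves are the 93 respiratory chain and ATP synthase genes, the other genes at or above the median signal, and all other genes. The curve of the 93 genes lies to the right of that of all other genes near 0, with medians of 0.07 and 0.005, and lacks the long tails. At or above the median signal the medians were 0.08 for 87 respiratory chain genes and 0.025 for all genes with these included.

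Complex I takes electrons from NADH. Its 6 measured core subunits include those that carry the flavin and the iron-sulfur clusters. These 6 had a median log2 fold change of 0.04, with 5 of 6 above 0 and 0 whose groups were separate. The median was -0.008 without db/m replicate 1. With quantile normalization it was 0.0009, and 3 of 6 were above 0. Ndufs7, which holds the last iron-sulfur cluster before ubiquinone, had a signal of 11.65, 11.66 and 11.65 in db/db mice and 11.56, 11.58 and 11.78 in db/m mice, and its log2 fold change was 0.02 (SE 0.11) with an adjusted p of 0.972. The 3 db/db values were nearly equal and lay inside the range of the db/m mice. For Ndufv1, the subunit that binds NADH and the flavin, the difference was 0.02 (SE 0.10) on the log2 scale, with an interval of 0.867 to 1.19 in fold.

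The 26 accessory subunits of complex I, which surround and stabilise the core, had a median log2 fold change of 0.10, and 20 of 26 were above 0. Of the accessory subunits, 30.8% had separate groups with db/db higher, against 9.17% of all genes. Whether accessory and core subunits differ was not tested. All 8 of the complex I genes whose groups were separate are accessory subunits, namely Ndufa1, Ndufa6, Ndufa8, Ndufb10, Ndufb5, Ndufb6, Ndufb9 and Ndufs4. Apart from Ndufa6, these genes lie outside the rule for named genes and were chosen after their values were seen, as were Ndufv1, Ndufs8, Ndufa11, Ndufaf2, Ndufaf6, Uqcrfs1, Cox5b, Cox7a2l, Atp5h, Atp5j and Atp5mpl. The groups were only just separate for Ndufb5, Ndufb9 and Ndufb10. For Ndufb10 the lowest db/db mouse was at 5.4318 and the highest db/m mouse at 5.4253. The used probe set of Ndufa8 gave a log2 fold change of 0.17, and its dimmer second probe set gave 0.06. Ndufa6, a subunit of the matrix arm that binds the mitochondrial acyl carrier protein, had the lowest p of complex I. Its signal was 9.39, 9.28 and 9.42 in db/db mice and 9.02, 9.12 and 8.86 in db/m mice. The lowest db/db mouse lay above the highest db/m mouse, and the log2 fold change was 0.36 (SE 0.11), or 1.29-fold with an interval of 1.08 to 1.53 and an adjusted p of 0.261. Without any single mouse its log2 fold change stayed between 0.29 and 0.43.

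Ndufb6, a subunit of the membrane arm, measured 8.57, 8.50 and 8.56 in db/db mice and 8.25, 8.40 and 8.33 in db/m mice, with a log2 fold change of 0.22 (SE 0.10) and an adjusted p of 0.488. Ndufs4, whose loss in humans causes Leigh syndrome, measured 9.58, 9.61 and 9.78 in db/db mice and 9.40, 9.58 and 9.39 in db/m mice. Here the lowest db/db value exceeded the highest db/m value by less than the range within either group, and the log2 fold change was 0.20 (SE 0.11) with an adjusted p of 0.557. At the other end stood Ndufv3, an accessory subunit of the NADH-binding part, at 6.87, 6.80 and 6.89 in db/db mice and 6.91, 6.85 and 7.36 in db/m mice. Only db/m replicate 3 was set apart from the other mice for Ndufv3, and its log2 fold change was -0.19 (SE 0.14) with all mice and -0.03 without that mouse. Ndufc2, among the brightest probe sets of complex I, had a log2 fold change of -0.04 (SE 0.11) and overlapping groups.

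The 8 assembly factors Ndufaf1 to Ndufaf8, which help to build complex I but are not part of it, had a median log2 fold change of -0.05, with 3 of 8 above 0 and 0 called. This sign depended on single mice. Without db/m replicate 3 the median was 0.04 and 6 of 8 were above 0, and without db/db replicate 3 it was 0.0002 with 4 of 8 above 0. The values extended from -0.18 for Ndufaf6, which acts early in the building of the matrix arm, to 0.15 for Ndufaf2, which acts late. Ndufaf6 measured 6.01, 5.91 and 5.89 in db/db mice and 5.92, 6.01 and 6.41 in db/m mice. As for Ndufv3, db/m replicate 3 was the only mouse clearly above the rest. Whether the assembly factors differ from the subunits was not tested.

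Complex II, the succinate dehydrogenase shared with the citric acid cycle, had a median log2 fold change of 0.08 over its 4 subunits and 4 assembly factors, with 5 of 8 above 0 and 0 called. Its 4 subunits alone had a median of 0.03. Sdhd, one of the membrane anchors, measured 9.99, 9.84 and 9.85 in db/db mice and 9.73, 9.77 and 9.64 in db/m mice. The groups were separate, and the log2 fold change was 0.18 (SE 0.10) with an adjusted p of 0.584. Sdha, the flavoprotein with the catalytic site, overlapped between the groups at a log2 fold change of 0.10 (SE 0.10). Sdhb, the iron-sulfur subunit, measured 8.41, 8.43 and 8.47 in db/db mice and 8.33, 8.36 and 8.87 in db/m mice. Replicate 3 of the db/m mice alone stood high, and the log2 fold change was -0.09 (SE 0.15) with all mice and 0.09 without that mouse. Sdhc, the other anchor, had -0.04 (SE 0.14).

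Complex III hands electrons from ubiquinol to cytochrome c. Its 7 measured subunits had a median log2 fold change of 0.04, and 5 of 7 were above 0. Without db/m replicate 1 the median of these subunits was -0.02 and that of all 8 genes of the complex -0.03, against 0.03 with all mice. Uqcrc2, one of the large core proteins, measured 11.13, 11.13 and 11.14 in db/db mice and 11.04, 11.05 and 10.85 in db/m mice. The db/db mice differed by no more than 0.01 on the log2 scale from each other and lay above all db/m mice, with a log2 fold change of 0.15 (SE 0.10) and an adjusted p of 0.651. Uqcrb, a small subunit near the ubiquinone site, had the highest log2 fold change of the complex, 0.15 (SE 0.13), with overlapping groups. Uqcrfs1, the Rieske iron-sulfur protein, had -0.02 (SE 0.11). The pseudogene Uqcrh-ps1 had the lowest log2 fold change of all 93 genes, -0.36 (SE 0.16), at 1.59, 1.84 and 1.57 in db/db mice and 1.67, 2.13 and 2.28 in db/m mice. These signals are among the dimmest in the table and the groups overlap, with an adjusted p of 0.48.

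Complex IV, the cytochrome c oxidase, is the complex whose median lay highest, at a log2 fold change of 0.15 over 19 genes, of which 16 were above 0. Separation did not stand out in the same way. Only 2 of these 19 genes had separate groups with db/db higher, compared with 8 of the 40 complex I genes. Among all genes this share was 9.17%, and among those at or above the median signal it was 12.1%. The 10 complex IV subunits of general use all had values above 0, between 0.01 and 0.32, with a median of 0.16 and 0 called. Of these 10, only 1 had separate groups. With quantile normalization 8 of the 10 were above 0, without db/m replicate 1 also 8, and without db/db replicate 3 there were 9. Cox4i1, a subunit through which ATP regulates the enzyme, measured 10.21, 10.25 and 10.25 in db/db mice and 10.14, 10.05 and 9.99 in db/m mice. The groups were separate, the log2 fold change was 0.18 (SE 0.10) and the adjusted p was 0.563. Cox5b, a zinc-binding matrix subunit, measured 10.22, 9.70 and 10.13 in db/db mice and 9.53, 9.81 and 9.73 in db/m mice. Replicate 2 of the db/db mice lay among the db/m mice and the other db/db mice lay above them, with a log2 fold change of 0.32 (SE 0.15) and an adjusted p of 0.496. Its dimmer second probe set gave 0.10. Cox7b, a small membrane subunit, had the same low db/db replicate 2, with a log2 fold change of 0.26 (SE 0.17) over all mice and 0.48 without it.

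**Figure D3:**
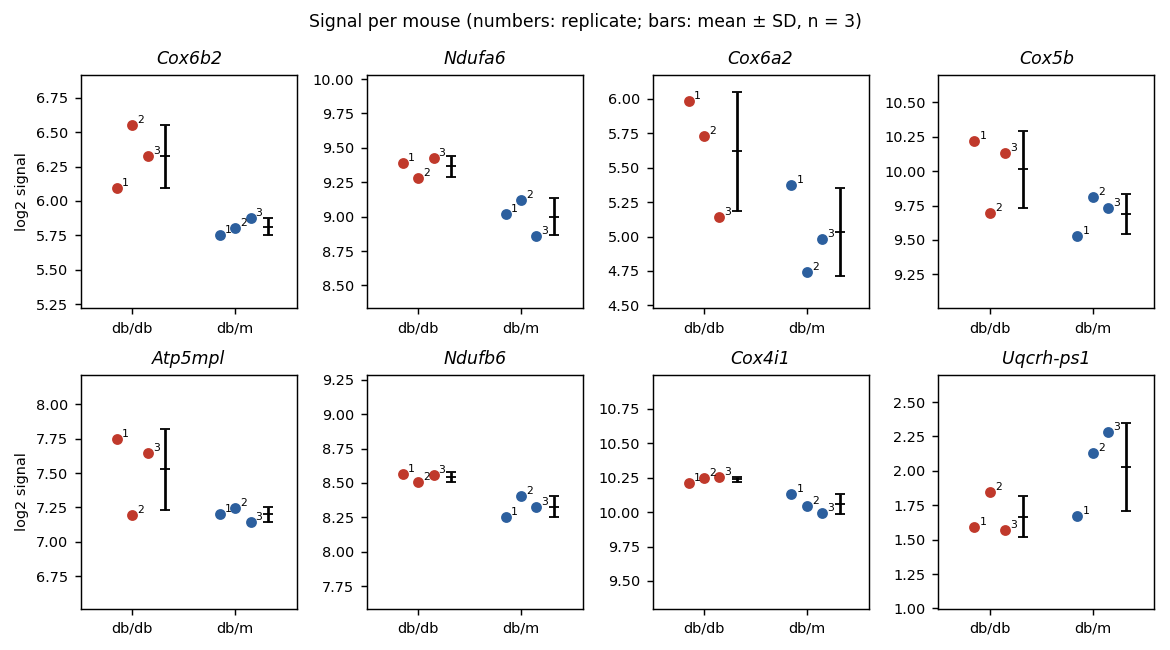
Log2 signal (y axis) of 8 genes in each mouse, with db/db mice on the left and db/m mice on the right of each panel. Points are mice and bars are the mean with its SD. The groups are separate for Cox6b2, Ndufa6, Ndufb6 and Cox4i1 and overlap for Cox6a2, Cox5b, Atp5mpl and Uqcrh-ps1.

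Several subunits of complex IV exist as a common form and a form known from particular tissues, and 2 of the 3 genes with an unadjusted p under 0.05 were such isoforms. Cox6b2, known as the testis form of the subunit at the cytochrome c side, measured 6.10, 6.55 and 6.33 in db/db mice and 5.75, 5.80 and 5.88 in db/m mice. All db/db mice lay above all db/m mice, with a log2 fold change of 0.51 (SE 0.13), or 1.43-fold with an interval of 1.17 to 1.75 and an adjusted p of 0.166. Its common partner Cox6b1 measured 9.10, 9.0 and 9.26 in db/db mice and 8.92, 9.13 and 9.27 in db/m mice, with overlapping groups and a log2 fold change of 0.01 (SE 0.13). The spread of Cox6b2 was wider in db/db mice, where the means and SDs were 6.32 ± 0.23 in db/db mice and 5.81 ± 0.06 in db/m mice. Its log2 fold change lay between 0.40 and 0.63 when single mice were left out, with adjusted p values from 0.184 to 0.368.

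Cox6a2, the heart and skeletal muscle form of subunit 6a, had the highest log2 fold change of all 93 genes. It measured 5.99, 5.73 and 5.14 in db/db mice and 5.38, 4.74 and 4.98 in db/m mice. The lowest db/db mouse lay below the highest db/m mouse, and the log2 fold change was 0.59 (SE 0.22), or 1.5-fold with an interval of 1.06 to 2.13 and an adjusted p of 0.388. Without db/db replicate 1 the log2 fold change was 0.40, and without db/db replicate 3 it was 0.82. The general form Cox6a1 had a log2 fold change of 0.05 (SE 0.10), and its 6 values lay between 11.94 and 12.07. Among 11 striated muscle markers, of which 4 reached the median signal, the median log2 fold change was 0.009 and 0 were called, and their summed level was 6.59 to 6.78 in db/db mice and 6.68 to 6.81 in db/m mice. Cox6a2 overlaps the gene Itgad in the annotation, and the strand of the probes is not known here.

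The remaining isoform pairs showed no separation of the groups except for Cox4i1. Cox4i2, the form known to be induced by low oxygen, had 0.02 (SE 0.14) on the log2 scale. Cox7a1, the muscle form, had 0.22 (SE 0.15), and the liver form Cox7a2 had 0.15 (SE 0.10). Cox8a had 0.02 (SE 0.10), whereas the muscle form Cox8b and the testis form Cox8c, both below the median signal, had -0.15 (SE 0.21) and 0.08 (SE 0.11). The testis form Cox7b2, also below the median signal, had the lowest value of complex IV, -0.16 (SE 0.11). Ndufa4 had 0.04 (SE 0.11). Its relative Ndufa4l2, which is induced by hypoxia, had -0.10 (SE 0.16) and 0.09 without db/m replicate 3. Cox7a2l, a factor that joins complexes III and IV into supercomplexes, measured 6.20, 6.18 and 6.10 in db/db mice and 5.65, 5.92 and 6.12 in db/m mice, with a log2 fold change of 0.26 (SE 0.13) and an adjusted p of 0.525.

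In complex V, 15 of 18 genes had a log2 fold change above 0, with a median of 0.07 and 0 called. The 5 subunits of the catalytic F1 part and the 4 of the peripheral stalk all had values above 0, with medians of 0.08 and 0.09. With quantile normalization or without db/db replicate 3, 3 of the 4 stalk subunits did so. Without db/db replicate 1, db/m replicate 1 or db/m replicate 2, 4 of the 5 F1 subunits did so. Atp5b, the catalytic beta subunit, measured 12.10, 12.07 and 12.11 in db/db mice and 11.98, 12.02 and 12.08 in db/m mice, with a log2 fold change of 0.07 (SE 0.10). Its groups overlapped, and its interval of 0.903 to 1.22 in fold was among the narrower ones. Atp5a1, the alpha subunit, had separate groups at 11.14, 11.14 and 11.17 in db/db mice and 11.001, 11.11 and 10.99 in db/m mice, a log2 fold change of 0.12 (SE 0.10) and an adjusted p of 0.723. Atp5h, subunit d of the stalk, was also separate, with 0.13 (SE 0.10).

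Subunit c forms the rotating ring of ATP synthase and is encoded by 3 genes that make the same mature protein. Atp5g3 measured 9.25, 9.33 and 9.40 in db/db mice and 8.97, 9.24 and 9.13 in db/m mice. The groups were just separate, with a log2 fold change of 0.21 (SE 0.11) and an adjusted p of 0.542. Atp5g1 had the highest log2 fold change of complex V, 0.36 (SE 0.22), at 4.22, 4.59 and 4.17 in db/db mice and 4.0, 4.43 and 3.49 in db/m mice. Its db/m mice spread over most of a log2 unit, and without db/m replicate 3 the log2 fold change was 0.11. Atp5g2 had 0.02 (SE 0.10), and its 6 values lay between 10.99 and 11.08. Atp5mpl, a small membrane subunit, measured 7.75, 7.19 and 7.64 in db/db mice and 7.20, 7.25 and 7.14 in db/m mice. Replicate 2 of the db/db mice lay among the db/m mice, and the log2 fold change was 0.33 (SE 0.15) with an adjusted p of 0.473. The pseudogene Atp5c1-ps, near the lowest signals of the table, had -0.17 (SE 0.15).

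**Figure D4:**
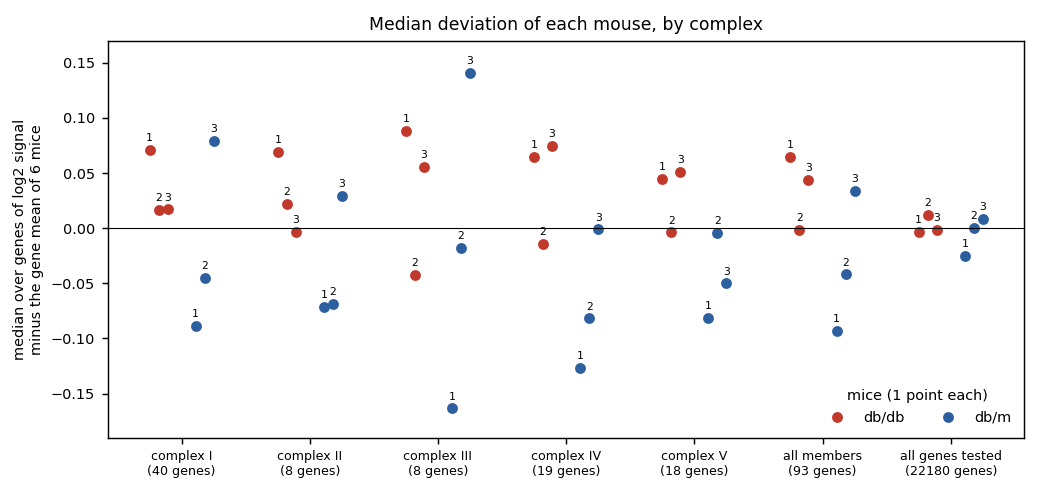
Median deviation of the genes of each complex from their own 6-mouse mean (y axis, log2) for each mouse, db/db mice left of db/m mice. Replicate 1 of the db/m mice lies lowest in complexes I to V, and db/m replicate 3 lies above at least 1 db/db mouse in complexes I to IV. Over all genes at or above the median signal, db/m replicate 1 was also lowest, at -0.04.

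The mice were also compared over whole complexes. Over all 93 genes the median deviation from the gene mean was 0.06, -0.002 and 0.04 in db/db replicates 1, 2 and 3 and -0.09, -0.04 and 0.03 in db/m replicates 1, 2 and 3. Thus db/m replicate 3 lay above db/db replicate 2, and the groups overlapped in this measure. Replicate 1 of the db/m mice was also lowest over all genes at or above the median signal, at -0.04. There the other mice lay between 0.004 and 0.023. In complex IV the values were 0.06, -0.01 and 0.07 in db/db mice and -0.13, -0.08 and -0.001 in db/m mice, and in complex I they were 0.07, 0.02 and 0.02 in db/db mice and -0.09, -0.05 and 0.08 in db/m mice. The spread within groups was modest, with a median SD of 0.0986 in db/db mice and 0.123 in db/m mice, against 0.123 and 0.147 over all genes.

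Single mice moved these counts. Replicate 3 of the db/m mice was the highest db/m mouse in 50 of the 93 genes (53.8%, against 39.8% of the other genes) and exceeded the other db/m mice by at least 0.2 on the log2 scale in 24 genes, among them Ndufv3, Ndufs8, Ndufa11, Sdhb and Sdhc. Without it, 81 of 93 genes had a log2 fold change above 0 (87.1%, against 53.3% of all genes), and in 39 genes (41.9%, against 16.3% of all genes) the groups were separate with db/db higher. Without db/db replicate 2, the lowest db/db mouse in 44 genes, 73 were above 0 (78.5%, against 50% of all genes) and 30 were separate (32.3%, against 14% of all genes). Without db/m replicate 1, the lowest db/m mouse in 47 genes, 60 were above 0 (64.5%, against 49.4%) and 20 were separate (21.5%, against 12.8% of all genes). In each of these settings limma called 0 of the 93 genes, and the lowest adjusted p with any mouse left out was 0.184.

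**Figure D5:**
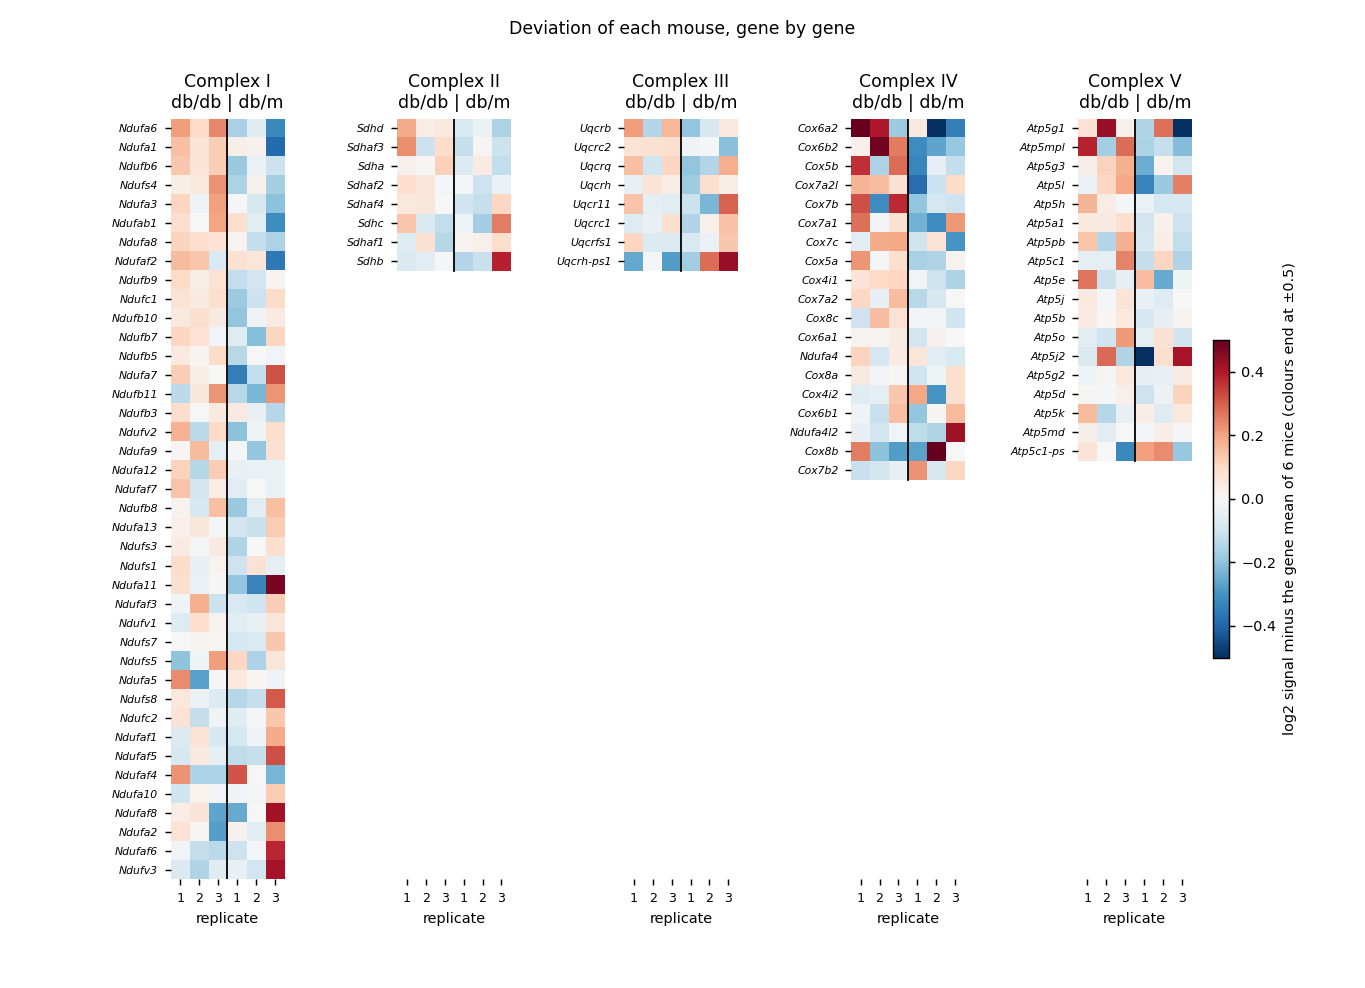
Deviation of each mouse from the gene's mean over the 6 mice (colour, log2, ending at ±0.5), with 1 row per gene, 1 panel per complex and the db/db mice left of the line. The column of db/m replicate 3 holds the strong high values of Ndufv3, Ndufaf6, Ndufa11 and Sdhb, and db/m replicate 1 is mostly on the low side.

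The genes of the respiratory chain that lie on mitochondrial DNA fall outside the symbol rule, and 10 of 13 were measured. Of these, 9 had a log2 fold change above 0, with a median of 0.08 over all 10, and in 0 were the groups separate. The 9 had mean signals from 11.97 (ND2) to 12.54 (ND4), near the highest value of all probe sets, 12.8. Whether differences are read in full at such bright signals was not tested. ND3, a membrane subunit of complex I, measured 12.27, 12.13 and 12.24 in db/db mice and 12.03, 12.13 and 11.93 in db/m mice, with a log2 fold change of 0.18 (SE 0.11) and an adjusted p of 0.586, the lowest of the 10. ND6, the subunit encoded on the other strand, had a dim signal and a log2 fold change of -0.11 (SE 0.14). Limma called 0 of these genes, with 0 at an unadjusted p under 0.05.

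Other mitochondrial genes gave little more. Across 7 lists with 185 genes limma called 0 genes, and the methods' test called 0 as well. The lists covered electron carriers with the mitochondrially encoded genes, further assembly factors, the citric acid cycle and biogenesis regulators. They also covered mitochondrial ribosomal proteins, fission and fusion, and uncoupling and antioxidant genes. Before adjustment, 3 of the 185 were higher and 4 were lower at a limma p under 0.05, against 5.92% and 4.7% of all genes. The median log2 fold change of the 185 was 0.03, against 0.005 over all genes and 0.025 over those at or above the median signal. In the list of electron carriers 20 of 24 genes were above 0 with a median of 0.07, and Slc25a4, the heart-type ADP/ATP carrier, measured 9.42, 9.35 and 9.58 in db/db mice and 9.23, 9.29 and 9.03 in db/m mice, with 0.27 (SE 0.12) and an adjusted p of 0.465. Cycs, the cytochrome c that links complexes III and IV, had -0.15 (SE 0.14), and its testis form Cyct, below the median signal, had -0.24 (SE 0.10) with an adjusted p of 0.417. In the citric acid cycle 11 of 13 genes were above 0 with a median of 0.06, led by Idh3a, the catalytic subunit of the NAD-dependent isocitrate dehydrogenase, at 8.65, 8.48 and 8.82 in db/db mice and 8.36, 8.39 and 8.19 in db/m mice. The groups of Idh3a were separate, with 0.33 (SE 0.12) and an adjusted p of 0.354.

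The 71 mitochondrial ribosomal proteins had a median log2 fold change of -0.01, with 34 above 0. The lowest p values of this list belonged to Mrpl23, a protein of the large subunit, at 0.45 (SE 0.13) and an adjusted p of 0.236, and Mrps33, of the small subunit, at -0.22 (SE 0.10) and an adjusted p of 0.461, both with separate groups. Whether the ribosomal proteins differ from the subunits of the respiratory chain was not tested. Of 37 assembly factors outside the symbol rule, 21 were above 0, with a median of 0.03. Cox15, which makes the heme a of cytochrome c oxidase, measured 8.05, 8.17 and 7.998 in db/db mice and 8.37, 8.38 and 8.51 in db/m mice. It was lower in all db/db mice than in all db/m mice, with -0.35 (SE 0.10) and an adjusted p of 0.252, whereas the common subunits of the same enzyme had the values given above. Acad9, an assembly factor of complex I, was also separate and lower, with -0.29 (SE 0.10) and an adjusted p of 0.323. Of 20 regulators of mitochondrial biogenesis 11 were above 0 with a median of 0.03. The lowest p values were those of Esrrb, a nuclear receptor related to ERR alpha, at 0.28 (SE 0.13), and of the coactivator Pprc1, at -0.23 (SE 0.13), with overlapping groups. Ppargc1a, the coactivator that drives transcription of respiratory genes, measured 9.53, 9.63 and 9.57 in db/db mice and 9.43, 9.51 and 9.24 in db/m mice, with separate groups, a log2 fold change of 0.19 (SE 0.11) and an adjusted p of 0.591. Tfam, which packages mitochondrial DNA and helps to start its transcription, had 0.17 (SE 0.13). The medians were 0.09 for 11 genes of fission, fusion and mitophagy and 0.007 for 9 uncoupling and antioxidant genes. In these 7 lists ND3, ND6, Cycs, Ppargc1a, Tfam and the factors Nrf1, Gabpa, Esrra and Yy1 lie outside the rule for named genes and were chosen after their values were seen.

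Among 16 genes induced by hypoxia, 14 were above 0 with a median of 0.19. Limma called 1 of them higher, against 0.194% of all genes. Pdk1, the kinase that keeps pyruvate out of the citric acid cycle, rose in db/db mice. It measured 6.91, 6.77 and 7.30 in db/db mice and 6.04, 6.16 and 5.78 in db/m mice, with a log2 fold change of 0.999 (SE 0.16) and an adjusted p of 0.0355. Its call was lost whichever mouse was left out, with adjusted p values from 0.0552 to 0.138. The hypoxia-induced Cox4i2 and Ndufa4l2 had log2 fold changes of 0.02 and -0.10.

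Markers of cell types were read beside these genes. All 10 markers of the thick ascending limb and distal tubule had values above 0, with a median log2 fold change of 0.30 and 0 called. At an unadjusted limma p under 0.05, 5 of the 10 were higher, against 5.92% of all genes. The summed level of the 10 was 13.50 to 13.61 in db/db mice and 13.23 to 13.36 in db/m mice. Calb1, the calcium-binding protein of the distal convoluted tubule, had 0.68 (SE 0.16) and an adjusted p of 0.135. Of 10 collecting duct markers 9 were above 0 with a median of 0.25, and the summed level was 11.54 to 11.67 in db/db mice and 11.26 to 11.50 in db/m mice. For 14 proximal tubule markers, all at or above the median signal, the median was -0.03 with 6 above 0, and the summed level was 14.87 to 14.99 in db/db mice and 14.93 to 15.04 in db/m mice. Among them Slc7a13, a transporter of the last proximal segment, fell by 1.37 on the log2 scale with an adjusted p of 0.0433, a call that held in 1 of 6 fits with a mouse left out, with adjusted p values from 0.0251 to 0.158.

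Of 11 immune markers 2 were above 0, with a median of -0.28. At an unadjusted limma p under 0.05, 6 of the 11 were lower, against 4.7% of all genes. In 7 of the 11 (63.6%) all db/db mice lay below all db/m mice, against 7.62% of all genes. The summed level of the immune markers was 7.88 to 8.16 in db/db mice and 8.32 to 8.396 in db/m mice. Cd3e, which belongs to the T cell receptor, fell by 0.81 with an adjusted p of 0.0484, and this call held in 0 of 6 fits with a mouse left out, with adjusted p values from 0.0889 to 0.187. Fat cell markers had values below 0 in 9 of 9 genes with a median of -0.21 and 0 called, with the defining Adipoq, Lep and Plin1 at signals near the median of all probe sets or below. The medians were 0.05 for 9 podocyte and endothelial markers and 0.07 for 10 fibroblast and smooth muscle markers. Lep lies outside the rule for named genes. The part of these cell types in the values of the respiratory chain genes was not tested.

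Some promoters of these genes hold short sequence motifs, which the symbol rule did not use. Nuclear genes of the respiratory chain are known targets of the factors NRF1, GABPA (an ETS protein), ERR alpha and YY1. Promoter windows from 250 bases before to 50 bases after the start of transcription, from RefSeq on GRCm38.p6, were at hand for 76 of the 93 genes. On either strand, the letters CGCATGCG of the NRF1 motif occurred in 11 of them (14.5%), against 2.07% of all genes with a window and 2.81% of those measured on the array. The ETS letters CCGGAAG occurred in 22 (28.9%, against 9.93% of all genes and 12.7% of those on the array), the YY1 letters AAGATGGCG in 7 (9.21%, against 1.64% and 2.18%) and the ERR letters TCAAGGTCA in 2 (2.63%, against 0.466% and 0.366%). At least 1 of the 4 motifs was present in 34 of the 76 genes, and the others held none. The share of all genes with any of the 4 was not counted. The genes compared were not matched for the base composition of their promoters. A match describes the letters only.

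Between db/db and db/m mice, the median log2 fold change was 0.03 for genes with the NRF1 letters and 0.08 for those without, 0.04 with and 0.09 without the ETS letters, and 0.07 with and 0.07 without the YY1 letters. The 2 genes with ERR letters were Atp5g3 and Sdhd, at 0.21 and 0.18. The factors themselves had log2 fold changes of 0.09 (SE 0.11) for Nrf1, 0.04 (SE 0.15) for Gabpa, 0.08 (SE 0.11) for Esrra and 0.15 (SE 0.13) for Yy1, with adjusted p values of 0.822, 0.944, 0.828 and 0.737.

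The following promoters are given 5′ to 3′ on the strand of the gene, with matches in capitals, where CTTCCGG and TGACCTTGA are the ETS and ERR letters of the other strand. Atp5j, a stalk subunit that in the annotation overlaps Gabpa, holds the NRF1, YY1 and ETS letters in the window shown and none of the motifs in its other annotated window, and Sdhd holds those of ETS and ERR. Cox6a1 holds NRF1 and ETS letters and Cox6b1 an ETS match, and they stand for the common forms of complex IV. Cox6b2 and Ndufa6, the genes with the lowest p values, hold none of the 4 motifs in this window.
Atp5j (chr16:84834927-84835226, minus strand): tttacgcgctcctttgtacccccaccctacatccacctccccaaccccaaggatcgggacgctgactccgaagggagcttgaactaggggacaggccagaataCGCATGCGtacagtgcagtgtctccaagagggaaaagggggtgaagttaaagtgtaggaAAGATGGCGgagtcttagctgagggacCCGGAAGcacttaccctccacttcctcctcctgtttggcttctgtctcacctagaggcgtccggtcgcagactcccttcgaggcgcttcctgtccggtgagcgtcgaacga
Sdhd (chr9:50603800-50604099, minus strand): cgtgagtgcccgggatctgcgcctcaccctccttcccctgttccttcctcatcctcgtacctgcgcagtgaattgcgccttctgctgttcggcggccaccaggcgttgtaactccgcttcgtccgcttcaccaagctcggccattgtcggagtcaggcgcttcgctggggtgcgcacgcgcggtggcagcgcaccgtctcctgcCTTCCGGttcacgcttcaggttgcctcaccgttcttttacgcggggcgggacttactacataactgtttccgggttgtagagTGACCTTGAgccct
Cox6a1 (chr5:115348909-115349208, minus strand): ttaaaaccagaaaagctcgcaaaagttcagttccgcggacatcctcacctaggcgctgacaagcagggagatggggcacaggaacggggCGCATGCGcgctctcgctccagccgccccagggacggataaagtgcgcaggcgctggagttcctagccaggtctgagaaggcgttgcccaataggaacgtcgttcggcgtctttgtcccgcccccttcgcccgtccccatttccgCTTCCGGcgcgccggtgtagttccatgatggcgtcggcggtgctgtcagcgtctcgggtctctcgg
Cox6b1 (chr7:30626065-30626364, minus strand): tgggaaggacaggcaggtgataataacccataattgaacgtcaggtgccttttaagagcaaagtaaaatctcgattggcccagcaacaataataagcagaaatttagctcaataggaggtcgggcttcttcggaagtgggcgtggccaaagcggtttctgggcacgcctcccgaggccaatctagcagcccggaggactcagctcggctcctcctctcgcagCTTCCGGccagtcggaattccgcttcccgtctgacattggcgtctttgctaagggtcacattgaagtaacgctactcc
Cox6b2 (chr7:4753045-4753344, minus strand): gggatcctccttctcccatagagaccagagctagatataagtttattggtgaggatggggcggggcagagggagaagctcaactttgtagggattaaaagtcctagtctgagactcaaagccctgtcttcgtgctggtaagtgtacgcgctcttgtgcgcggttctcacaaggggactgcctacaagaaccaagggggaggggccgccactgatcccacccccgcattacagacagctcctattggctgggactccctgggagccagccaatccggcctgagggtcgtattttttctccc
Ndufa6 (chr15:82354242-82354541, minus strand): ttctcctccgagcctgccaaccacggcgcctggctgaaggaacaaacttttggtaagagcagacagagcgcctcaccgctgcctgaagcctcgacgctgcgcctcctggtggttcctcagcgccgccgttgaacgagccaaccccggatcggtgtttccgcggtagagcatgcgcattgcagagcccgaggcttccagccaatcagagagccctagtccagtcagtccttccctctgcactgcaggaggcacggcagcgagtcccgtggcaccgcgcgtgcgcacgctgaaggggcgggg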

How the data were processed

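RNA from 3 db/db and 3 db/m mice was measured on 1 Affymetrix array per mouse. The authors deposited log2 signals per probe set, made by RMA in Affymetrix Expression Console per the submitters' notes, whose versions are not given in the sources used here, and 0 other columns per sample. The 41345 probe-set identifiers belong to a different Affymetrix design than the methods name. By the annotation of that design 23521 probe sets name 1 gene, 1820 name several and 16004 name none. Gene identifiers of all 93 genes matched RefSeq (GRCm38.p6), which was used for names, chromosomes and promoters.

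For each gene, db/db minus db/m was tested with limma 3.58.1 (lmFit, then eBayes, two-sided) under R 4.3.3, with Benjamini-Hochberg adjustment over 22180 genes, with 95% intervals from the moderated test. The analysis was tested on simulated data. Arrays give no counts, and 3 mice per group limit the precision. The labels call the arrays biological replicates. Summed levels of marker lists are log2 of the sum of linear signals.

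Genes were named by rule, which takes called genes, low p with separate groups, the brightest and the extreme genes of each complex, the isoform pairs and leading genes of other lists, not all of which are given, and names outside the rule are given as such. The genes, lists and motifs were chosen with earlier results of these data known. Alternatives were quantile normalization, centring on array medians, a filter on dim probe sets, the methods' t-test, trend and robust variances, averaging of probe sets, a replicate block, the study's thresholds, structural subunits only and leaving out each mouse.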

Additional observations from a re-analysis of the deposited data

How the results depend on the processing

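The call of no respiratory chain gene depended on the processing, except that 1 gene (Cox6a2) was higher with limma at the study's thresholds, which are unadjusted. Its log2 fold change of 0.585 lay at the fold threshold, which is 0.585 on the log2 scale. At those thresholds limma called 227 genes higher and 179 lower over all genes. Of 411 log2 fold changes of the 32 genes named by rule under the alternatives, 411 kept their side of the threshold and 393 their sign, with a lowest adjusted p of 0.12. Over all genes, the methods' t-test called 0 higher and 2 lower, and the replicate block called 19 higher and 42 lower, with 0 respiratory chain genes and 0 genes of the 7 other mitochondrial lists under the block. Deviations of mice with the same replicate number correlated at 0.04, -0.05 and -0.08 over all genes. Over the 93 genes they correlated at 0.17, 0.001 and -0.02. With 3 mice per group these values cannot decide whether the numbers pair the mice. Of the called genes in other lists, Pdk1, Slc7a13 and Cd3e lost their calls with quantile normalization (adjusted p of 0.0529, 0.0529 and 0.0629) and with the methods' t-test. Leaving out single mice gave 8 to 26 genes higher and 20 to 43 lower over all genes, and medians of 0.03 to 0.10 for complex I, 0.05 to 0.09 for complex II, -0.03 to 0.08 for complex III, 0.11 to 0.17 for complex IV and 0.0592 to 0.1127 for complex V. Fewer mice were in these fits. For structural subunits only, the median of complex II was 0.0311. Quantile normalization lowered the medians of complexes I, II and III by more than 1.5 times, to 0.04, 0.05 and 0.008, and left 64 of the 93 genes above 0, while centring left 72. These scalings moved the median of all genes to -0.008 and 0.02. Medians of the parts of a complex, shares of all genes and counts of genes above 0, with separate groups or at an unadjusted p under 0.05 were added after the values were seen. At an unadjusted p under 0.05, trend and robust variances had 10 respiratory chain genes higher and 1 lower (10.8% and 1.08%, against 6.12% and 4.68% of all genes), and centring had 5 higher (5.38%, against 6.84%). By the methods' t-test 8 were higher (8.6%, against 4.96%). With quantile normalization 12 respiratory chain genes were separate and higher in db/db mice (12.9%, against 7.79% of all genes) and 2 were separate and lower (2.15%, against 8.55%). Signals below the median of 3.37 are too close to background to limit a change.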
